A study of Homo sapiens with 12 samples.

Results

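The genes described here are 36 genes of the endoplasmic reticulum (ER) that fold secreted and membrane proteins or answer to their misfolding, out of 60675 genes in the count tables. They were taken by symbol from a list of ER chaperones and unfolded protein response genes, with no measured value in the rule. The list was nevertheless chosen with earlier results of these data known, so the choice may not be independent of them. All 36 were found and passed the filter on low counts in all 4 comparisons. By role they are 4 sensors and factors, 10 chaperones and co-chaperones, 2 lectin chaperones, 6 genes of disulfide formation, 7 of ER-associated degradation and 7 of the translocon. RNA-seq counted reads per gene in 2 triple-negative breast cancer lines, HCC1187 (kept in RPMI-1640) and MDA-MB-468 (kept in DMEM), so that line and medium cannot be told apart. Cells of each line were transfected for 48 h with sh-SOX9-AS1, a short hairpin RNA (shRNA) against the long non-coding RNA SOX9-AS1, or with sh-LacZ, a hairpin against a bacterial gene, as control. Each of the 4 groups has 3 libraries: S10 to S12 are HCC1187 sh-SOX9-AS1, S7 to S9 HCC1187 control, S4 to S6 MDA-MB-468 sh-SOX9-AS1 and S1 to S3 MDA-MB-468 control. The labels do not tell whether separate cultures stand behind the 3 libraries of a group, so p-values measure only the spread between these libraries, which may be technical. In cells measured in bulk, fewer cells of a kind and less RNA per cell cannot be told apart.

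Proteins enter the ER through the SEC61 channel, are folded there by HSPA5 (BiP) and its co-chaperones, by the lectins calnexin and calreticulin and by protein disulfide isomerases, and are passed back to the cytosol for degradation when folding fails. The unfolded protein response watches over this capacity through 3 sensors in the ER membrane: IRE1 (ERN1), which splices the XBP1 mRNA, PERK (EIF2AK3), which slows translation, and ATF6, which is cut to release a transcription factor. XBP1 and ATF6 then drive many of the genes described here. Gene counts show the amount of an mRNA, not the splicing of XBP1, the cutting of ATF6 or the phosphorylation of a sensor.

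ATF6, with NF-Y, binds the ER stress response element, and this element is printed here because it ties the chaperone genes to the sensors. Promoters were read from RefSeq (GRCh38.p14) as 250 bases before to 50 bases after a start site, and 34 of the 36 genes had an entry. The motif ERSE (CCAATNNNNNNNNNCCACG, on either strand) was in 7 of the 34 promoters (20.6%), against 22 of 27305 promoters of all genes (0.0806%). ERSE-II (ATTGGNCCACG) was in 3 of 34 (8.82%), against 15 of 27305 (0.0549%). The UPRE core bound by XBP1 (TGACGTGG) was in 2 of 34 (5.88%), against 217 of 27305 (0.795%). The ERSE genes were CALR, CANX, CRELD2, ERO1B, HSP90B1 (2 matches), HSPA5 and XBP1, the ERSE-II genes were HERPUD1, HYOU1 (2 matches) and SDF2L1, and the UPRE core was in HYOU1, where it overlaps an ERSE-II match, and SEC62. The members were listed as ER chaperone and unfolded protein response genes, so shares above those of all promoters follow in part from how the list was drawn up. A match is a string of letters and not a shown binding site. The stretches below run 5′ to 3′ along each gene with the matched letters in capitals. They lie at chr9:125241371-125241429 (minus strand, HSPA5), chr22:28800583-28800641 (minus, XBP1), chr16:56932005-56932055 (plus, HERPUD1), chr19:12938364-12938422 (plus, CALR) and chr22:21642094-21642144 (plus, SDF2L1). HSPA5, XBP1 and HERPUD1 are shown because they fell in HCC1187 with sh-SOX9-AS1, and CALR and SDF2L1 because they carry the same kind of element and did not pass there.
HSPA5: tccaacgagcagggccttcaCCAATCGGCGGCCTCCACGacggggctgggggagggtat
XBP1: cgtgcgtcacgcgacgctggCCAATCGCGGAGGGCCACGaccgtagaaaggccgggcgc
HERPUD1: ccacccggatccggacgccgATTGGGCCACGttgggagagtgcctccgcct
CALR: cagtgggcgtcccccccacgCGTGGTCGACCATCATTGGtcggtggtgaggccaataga
SDF2L1: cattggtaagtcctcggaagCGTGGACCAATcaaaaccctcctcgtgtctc

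**Figure D1:**
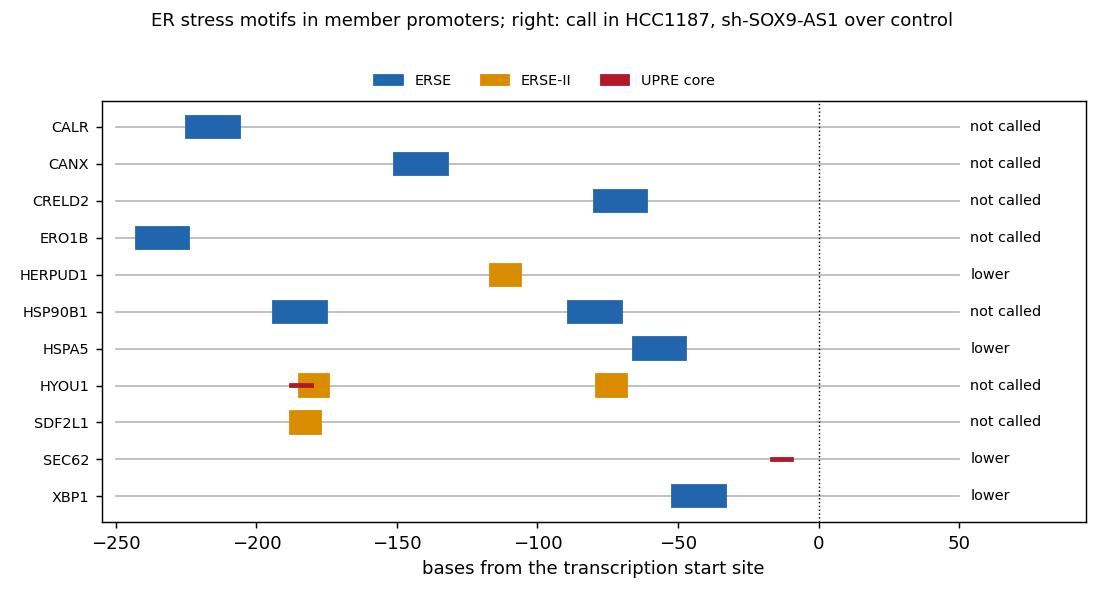
Positions of ERSE, ERSE-II and UPRE core matches in the promoters of the 11 members with a match, in bases from the transcription start site (0, dotted). The words on the right give the call in HCC1187, sh-SOX9-AS1 over control: HERPUD1, HSPA5, SEC62 and XBP1 were lower, and the other 7 did not pass.

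Libraries held 6026376 to 10160040 counts, from 1 of 3 sequencing lanes, and the 36 genes had 52 to 15607 counts per library. Levels are given as CPM, counts scaled to a common library size, with library totals adjusted by TMM. S4 stood apart from its group: across 16328 genes its log2(CPM + 1) correlated at 0.9906, 0.9918 and 0.9949 with the 3 controls of its line and at 0.9772 and 0.974 with S5 and S6, which correlated with each other at 0.9946. The MDA-MB-468 responses named here are therefore given with and without S4. Because S4 was set apart by the same counts that are tested, p-values without it can be too small. Over all genes, 1 passed in MDA-MB-468 with S4 and 5676 without it (edgeR, adjusted p under 0.05). SOX9-AS1 itself fell in HCC1187 (1.16, 0.697 and 0.796 CPM with sh-SOX9-AS1, against 2.32, 1.4 and 1.74 CPM in controls; log2 fold change −1.08 ± 0.36 SE, adjusted p = 0.0349, edgeR), and in MDA-MB-468 it did not pass (5.54, 5.03 and 5.57 CPM against 6.04, 7.28 and 6.54 CPM; −0.30 ± 0.20, adjusted p = 0.417, and −0.32 ± 0.23, adjusted p = 0.274, without S4). The HCC1187 values of SOX9-AS1 rest on few reads: 8, 5 and 9 counts with sh-SOX9-AS1, against 24, 13 and 17 counts in controls. The labels call both lines basal-like. In HCC1187 the basal keratin KRT5 had 0 to 0.194 CPM and KRT14 0 to 0.108 CPM over 6 libraries, and EGFR, KRT17, FOXC1, KRT5 and KRT14 together had 194 to 257 CPM, against 6370 to 8590 CPM in MDA-MB-468. EGFR made up most of the latter (6000, 6150 and 6450 CPM in controls). FOXC1 went the other way, with 173, 183 and 191 CPM in HCC1187 controls against 95.2, 94.6 and 72.8 CPM. Luminal markers (ESR1, PGR, GATA3, FOXA1, KRT8 and KRT18) were lower in HCC1187 too: they summed to 310 to 322 CPM in its controls, against 2740 to 3040 CPM. Markers of immune cells (PTPRC, CD3E, CD68) summed to at most 0.412 CPM in any library, those of endothelium (PECAM1, VWF) to at most 5.26 CPM and those of fibroblasts to 11.9 to 56.7 CPM, nearly all of it COL1A1, with COL1A2 and DCN near 0.

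Among the HCC1187 libraries, 16 of the 36 genes fell and 1 rose with sh-SOX9-AS1 (edgeR quasi-likelihood test, adjusted p under 0.05 over 14970 genes, n = 3 per group). Of all genes tested, 13.1% fell and 9.78% rose. The median log2 fold change was −0.19 over the 36 genes and 0.01 over all genes. Calls by role were uneven: 3 of 4 sensors and factors, 5 of 7 translocon genes, 3 of 7 degradation genes, 3 of 10 chaperones, 2 of 6 genes of disulfide formation and neither lectin chaperone fell. The 36 genes together took 0.608% to 0.659% of the counts in sh-SOX9-AS1 libraries and 0.671% to 0.696% in controls.

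Of the sensors and factors, 3 of 4 fell. ATF6, the sensor that becomes a transcription factor, had 50.9, 59.6 and 51.9 CPM in sh-SOX9-AS1 libraries, against 84.5, 92.5 and 82.1 CPM in controls, so that the groups lay far apart. Its log2 fold change was −0.68 ± 0.10 (1.61-fold lower, adjusted p = 2.15e-05). EIF2AK3, which encodes PERK, had 23.9, 29.7 and 25.9 CPM against 40.4, 40.7 and 42.9 CPM in controls, again with every sh-SOX9-AS1 library below every control (−0.65 ± 0.11, adjusted p = 0.000148). XBP1 had 86.1, 91.7 and 83.2 CPM, against 117, 107 and 132 CPM in controls (−0.46 ± 0.09, adjusted p = 0.000986). ERN1, the kinase and nuclease that splices XBP1, had the lowest level per length of all 36 genes in this line, 2.08 CPM per kb in controls, and its groups overlapped (24.6, 19.6 and 20.2 CPM against 20.3, 23 and 24.5 CPM; −0.09 ± 0.13, adjusted p = 0.651). The interval of that difference, −0.34 to 0.16, leaves out falls of the size seen in the 3 others.

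In the translocon, 5 of 7 genes fell. SSR1, a subunit of the TRAP complex that helps nascent chains enter the channel, had 103, 127 and 126 CPM with sh-SOX9-AS1, against 180, 199 and 206 CPM in controls (−0.72 ± 0.09, 1.65-fold lower, adjusted p = 8.69e-06), the largest fall among the 36. SSR3, another TRAP subunit, had 64.7, 70.9 and 79.3 CPM against 96, 112 and 105 CPM (−0.54 ± 0.10, adjusted p = 0.000257). In both genes the highest sh-SOX9-AS1 library was below the lowest control. SEC61G, the small gamma subunit of the channel, had 26.8, 34 and 33.3 CPM against 43.5, 45.5 and 43.7 CPM (−0.50 ± 0.11, adjusted p = 0.00183). SEC62 and SEC63, which serve entry after translation, fell by 0.29 and 0.25 on the log2 scale (adjusted p = 0.035 and 0.0419). The pore subunit SEC61A1 (−0.20 ± 0.08, adjusted p = 0.0827) and SEC61B (−0.03 ± 0.10, adjusted p = 0.871) did not pass. SEC61A1 was lower in every sh-SOX9-AS1 library than in every control. It passed with DESeq2 (−0.22, adjusted p = 0.034) and with a GC-content offset (−0.29, adjusted p = 0.00183). The 3 subunits of the channel thus did not share 1 call in the main fit, where SEC61A1 missed by a small margin. 

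The chaperones went in both directions, and their median log2 fold change was −0.02. DNAJC3 (P58IPK), a co-chaperone of HSPA5 also known to inhibit PERK, had 23.1, 29.5 and 24.8 CPM with sh-SOX9-AS1, against 39.5, 41.7 and 37 CPM in controls (−0.62 ± 0.11, adjusted p = 0.000389). DNAJB11 (ERdj3), another co-chaperone of HSPA5, was the single gene that rose: it had 41.9, 48.2 and 37 CPM against 26.8, 26.3 and 29 CPM, with no overlap (0.61 ± 0.11, 1.53-fold higher, adjusted p = 0.000442). HSPA5 itself had 436, 534 and 410 CPM against 535, 537 and 597 CPM (−0.28 ± 0.10, adjusted p = 0.0361), and its sh-SOX9-AS1 library S11 came within 1 CPM of the lowest control. DNAJB9 (ERdj4) fell (−0.43 ± 0.15, adjusted p = 0.035) although S11, at 22.9 CPM, was above the control S7 at 22.7 CPM. HSP90B1 (GRP94; −0.18 ± 0.10), HYOU1 (0.04 ± 0.08), SDF2L1 (0.14 ± 0.16), MANF (−0.09 ± 0.09), the HSPA5 exchange factor SIL1 (0.29 ± 0.12) and CRELD2 (0.22 ± 0.11) did not pass, with adjusted p from 0.0962 for SIL1 to 0.744 for HYOU1. 

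The lectins had values of opposite sign that did not pass. CALR (calreticulin) had 495, 501 and 475 CPM against 416, 415 and 428 CPM in controls, every sh-SOX9-AS1 library being the higher, at an adjusted p of 0.0546 (0.22 ± 0.08). It passed with DESeq2 (0.20, adjusted p = 0.0356) and with library totals alone (0.27, adjusted p = 0.00981), and with a GC-content offset it stood at 0.13 (adjusted p = 0.165). CANX (calnexin) had 619, 729 and 648 CPM against 725, 755 and 754 CPM, with overlap (−0.17 ± 0.09, adjusted p = 0.158).

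Of the degradation genes, HERPUD1, a stress-induced scaffold of the retrotranslocation complex, had 28.9, 27.3 and 34.8 CPM with sh-SOX9-AS1, against 43.1, 36.8 and 46.3 CPM in controls (−0.47 ± 0.12, adjusted p = 0.00496). EDEM1, which trims mannose from misfolded glycoproteins, fell by 0.34 (adjusted p = 0.017), and DERL1, a channel component, fell by 0.28 (adjusted p = 0.0224). EDEM2 had 17.5, 18 and 17.5 CPM against 16, 12.9 and 11.9 CPM, and did not pass (0.37 ± 0.14, adjusted p = 0.06). The ligase SYVN1 (HRD1), its partner SEL1L and DERL2 did not pass, with log2 fold changes of −0.14, −0.08 and 0.00. In disulfide formation, the oxidase ERO1A fell by 0.37 (adjusted p = 0.0212) and the isomerase P4HB by 0.25 (adjusted p = 0.0301), while ERO1B, PDIA3, PDIA4 and PDIA6 had values from −0.24 to −0.08 and did not pass. 

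**Figure D2:**
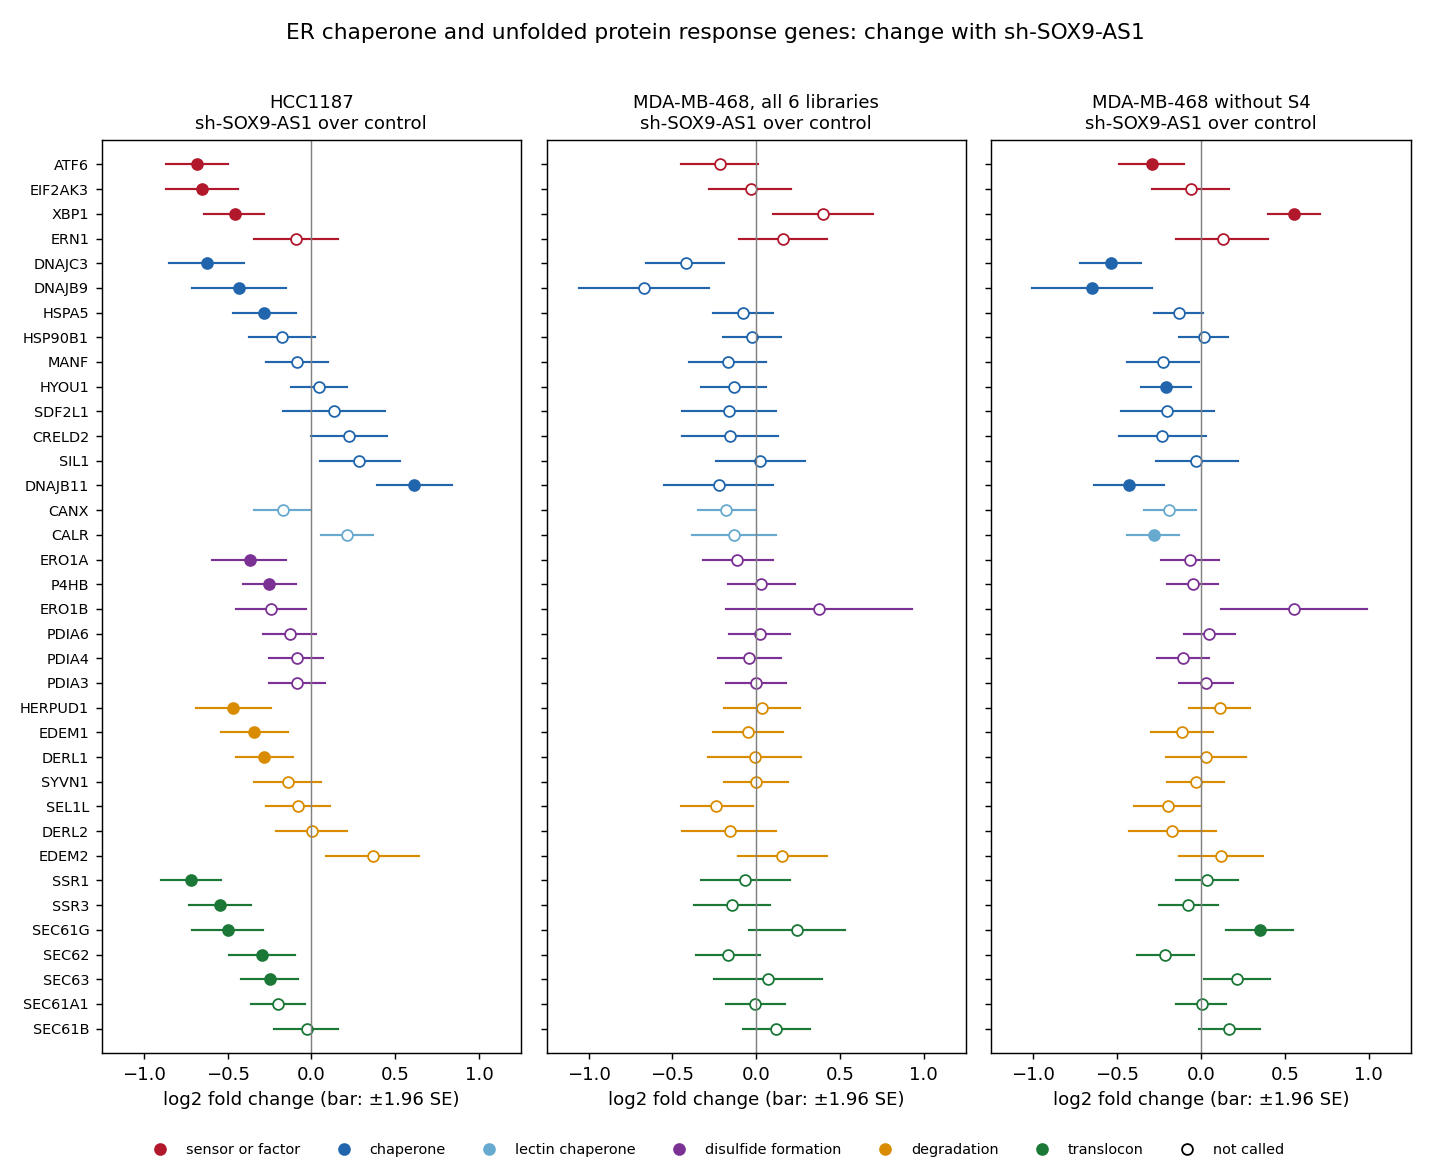
log2 fold change, sh-SOX9-AS1 over control, of the 36 genes ordered by role (points; bars are intervals from the SE; filled where adjusted p was under 0.05). In HCC1187 16 genes were called lower and DNAJB11 higher. In MDA-MB-468 none was called with all 6 libraries, and 8 were without S4, among them XBP1 and SEC61G as higher.

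How far these calls hold differed by gene. ATF6, EIF2AK3, XBP1, SSR1, SSR3, SEC61G, DNAJC3, HERPUD1 and DNAJB11 passed in all 6 fits that left out a library and under all 6 other settings (DESeq2, RLE scaling, library totals alone, no filter, all 12 libraries in 1 fit, an offset for GC content). The other 8 falls were each lost in at least 1 of them. EDEM1 was lost without S8, ERO1A without S8, S9 or S10, DERL1 without S7, S8 or S11, P4HB without S8, S9, S11 or S12, and SEC62 without S7, S8, S10 or S12. HSPA5, DNAJB9 and SEC63 were lost without S8, S9, S10 or S12. Without the control S8, 9 of 36 genes passed, the lowest count of the left-out fits. With library totals alone, 10 genes fell and 3 rose.

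**Figure D3:**
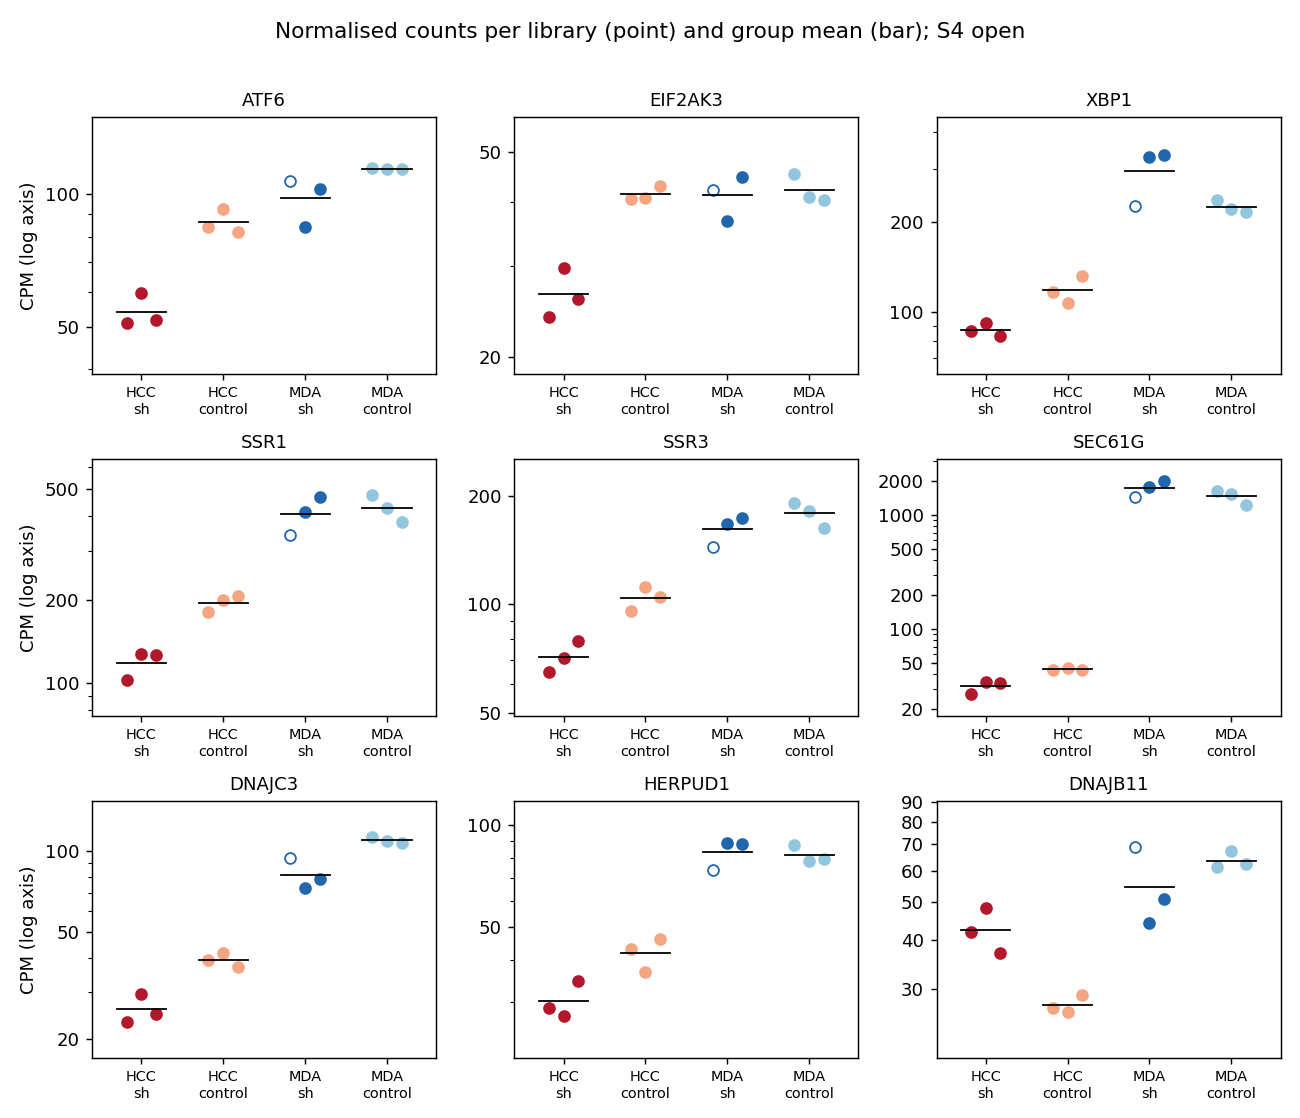
CPM per library (points, log axis) and group mean (bars) of the 9 genes whose HCC1187 call held in every fit, in HCC1187 sh-SOX9-AS1, HCC1187 control, MDA-MB-468 sh-SOX9-AS1 and MDA-MB-468 control; S4 is the open point. In HCC1187 8 of the 9 lie lower with sh-SOX9-AS1 and DNAJB11 higher, with no overlap.

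The fold changes moved with the GC content of the transcripts. Of 24 members under 50% GC, 15 fell and 1 rose, and of 12 members at 50% GC or over 1 fell, a split chosen after the values were seen. Of all genes tested, 13.1% fell and 9.78% rose. Their shares on each side of 50% GC were not counted, so the split is not shown to be particular to the members. Spearman's rho between log2 fold change and GC content was 0.46 over the 36 genes and 0.29 over 14889 genes, given as descriptions, since genes of a library share its depth and base composition. With length the rho was −0.4 over the 36 genes and −0.22 over the 14889, and no setting adjusted for length. Single libraries leaned by GC content too, within groups as well as between them: the rho of their deviation from the control mean was 0.44 in S10, 0.08 in S11 and 0.18 in S12, and 0.07 in S7, −0.42 in S8 and 0.32 in S9. With a per-library offset for GC content, added after the data were seen, 15 members fell and 1 rose: ERO1A, SEC62 and SEC63 no longer passed and SYVN1 and SEC61A1 did. ATF6 then stood at −0.60 (adjusted p = 1.58e-06), SSR1 at −0.62 (7.49e-07) and DNAJB11 at 0.80 (4.23e-06), whereas SEC61G shrank to −0.28 (0.0158), against −0.50 without the offset, and XBP1 to −0.38 (0.00133). Luminal breast markers (3 of the 4 tested fell, of 6 listed) summed to 254 to 274 CPM in sh-SOX9-AS1 libraries and 310 to 322 CPM in controls, basal markers (1 of the 3 tested fell, of 5 listed) to 194 to 209 CPM and 231 to 257 CPM. Their part in the changes of the ER genes was not tested.

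**Figure D4:**
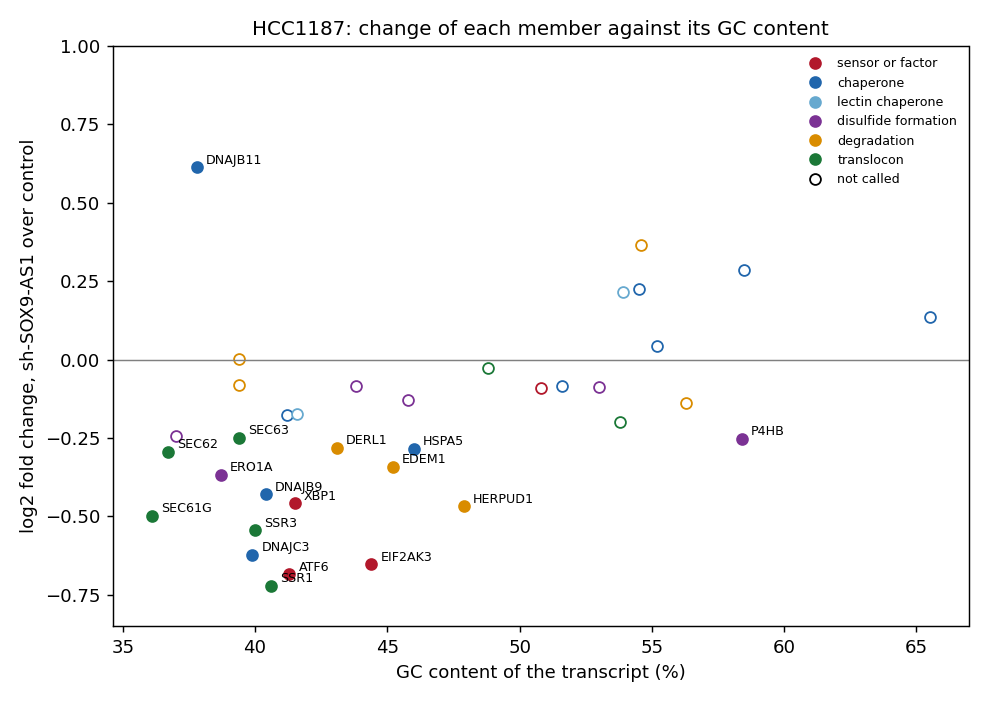
log2 fold change in HCC1187 (sh-SOX9-AS1 over control) of the 36 genes against the GC content of their transcript in percent; filled points passed. Most genes called lower lie under 50% GC, P4HB at 58.4% being the exception, and DNAJB11 is higher at 37.8%.

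Calls in HCC1187 were spread over genes with and without the promoter element printed above. Of the 10 genes with ERSE or ERSE-II, 3 fell (HSPA5, XBP1 and HERPUD1), 7 did not pass (CALR, CANX, CRELD2, ERO1B, HSP90B1, HYOU1 and SDF2L1), and the median log2 fold change was −0.17. Of the 24 without either, 12 fell, 1 rose and 11 did not pass, with a median of −0.22. Of all genes tested, 13.1% fell and 9.78% rose. The counts with and without the element were not tested against each other.

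Other genes of the pathway in HCC1187 came from lists of 44 genes, and their counts stand beside the 13.1% of all genes tested that fell and the 9.78% that rose. In the PERK and ATF4 arm 1 of 6 fell, the stress factor ATF3, which had 88.6, 156 and 130 CPM with sh-SOX9-AS1 against 162, 198 and 256 CPM in controls (−0.72 ± 0.15, adjusted p = 0.00117). ATF4, the factor that PERK signalling raises, had 305, 309 and 433 CPM against 344, 300 and 387 CPM and did not pass (0.01 ± 0.11). Among the relatives and proteases of ATF6, the site-2 protease MBTPS2 (0.50 ± 0.10, adjusted p = 0.000977) and ATF6B (0.50 ± 0.10, adjusted p = 0.000932) rose where ATF6 fell, and CREB3L2, another factor released from the ER membrane, fell to 63.6, 77.6 and 69.1 CPM, against 134, 140 and 148 CPM in controls (−1.01 ± 0.09, adjusted p = 7.75e-08). In targeting, signal peptidase and other translocon genes 4 of 10 fell: the signal peptidase subunits SEC11A (−0.73 ± 0.09) and SPCS3 (−0.68 ± 0.11), the chain-guiding TRAM1 (−0.62 ± 0.11) and the TRAP subunit SSR2 (−0.29 ± 0.09), with adjusted p from 7.88e-06 to 0.0281. The last TRAP subunit, SSR4, did not pass (0.11 ± 0.09, adjusted p = 0.402); it is named beyond the rule, to complete the complex. Of other folding enzymes 1 of 9 fell (PDIA5, −0.41), on the list of other degradation genes 1 of 8 (HSPA13, −0.53) and of the oligosaccharyl transferase 1 of 6 (STT3B, −0.36). These shares, and that of the PERK and ATF4 arm, lie near the 13.1% of all genes that fell. HSPA13 is an HSP70 family gene, and its place among degradation genes was a choice made in drawing up the list.

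In MDA-MB-468 none of the 36 genes passed with all 6 libraries, where 0.00733% of the 13638 genes tested did. At an unadjusted p under 0.05 there were 3 of 36 (DNAJB9, DNAJC3 and XBP1), against 18.7% of all genes tested, and DESeq2 called 0. Without S4, 2 rose and 6 fell, where 20% of all genes rose and 20.7% fell, so the share of members called was below that of all genes. Basal breast markers moved with the same libraries: without S4, 4 of 5 fell (KRT5, KRT14, KRT17 and FOXC1, with a median over the 5 of −1.85). KRT17 had 633 CPM in S4, 124 in S5 and 101 in S6, against 663, 624 and 572 CPM in controls. Together the 5 markers came to 8590 CPM in S4, 6370 in S5 and 6380 in S6, against 8380, 8410 and 8530 CPM in controls, and their part in the changes of the ER genes was not tested. XBP1 is an example of how S4 departs: it had 226 CPM in S4, 329 in S5 and 335 in S6, against 237, 222 and 216 CPM in controls. S4 thus lay among the controls, and without it the log2 fold change was 0.56 ± 0.08 (adjusted p = 5.95e-05), against 0.40 ± 0.15 with it (adjusted p = 0.228). SEC61G had 1440 CPM in S4, 1750 in S5 and 1990 in S6, against 1630, 1520 and 1230 CPM (0.35 ± 0.10, adjusted p = 0.0129 without S4; 0.24 ± 0.15, adjusted p = 0.37 with it). 

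The 6 genes that fell without S4 were 4 chaperones, the lectin gene CALR and ATF6. DNAJC3 had 93.7 CPM in S4, 73.1 in S5 and 78.3 in S6, against 113, 109 and 107 CPM in controls, every sh-SOX9-AS1 library being the lower (−0.54 ± 0.09, adjusted p = 0.000266 without S4; −0.42 ± 0.12, adjusted p = 0.205 with it). DNAJB9 had 19.9, 19.7 and 23.1 CPM against 40.1, 35.7 and 24 CPM (−0.65 ± 0.19, adjusted p = 0.0112 without S4; −0.67 ± 0.20, adjusted p = 0.205 with it). DNAJB11 had 68.8 CPM in S4, above all controls, and 44.3 and 50.8 CPM in S5 and S6, below all of them (61.5, 67.2 and 62.4 CPM; −0.43 ± 0.11, adjusted p = 0.00452 without S4; −0.22 ± 0.17, adjusted p = 0.46 with it). CALR (−0.28 ± 0.08), ATF6 (−0.29 ± 0.10) and HYOU1 (−0.21 ± 0.08) fell as well, with adjusted p of 0.00907, 0.027 and 0.041 without S4. With S4 they stood at −0.13 ± 0.13, −0.22 ± 0.12 and −0.13 ± 0.10, with adjusted p of 0.56, 0.332 and 0.468. No gene of disulfide formation or degradation passed in either fit. In the PERK and ATF4 arm 5 of 6 genes rose and PPP1R15A fell (−0.63 ± 0.11) without S4, where 20% of all genes rose and 20.7% fell. With S4, 0 of 6 passed. Among the 5 were TRIB3 (1.04 ± 0.08, adjusted p = 1.99e-07), ATF4 (0.75 ± 0.10, adjusted p = 3.62e-05) and ATF3 (0.65 ± 0.15, adjusted p = 0.00288). With S4 these 3 stood at 0.84, 0.62 and 0.49, with adjusted p of 0.205, 0.205 and 0.232, and PPP1R15A at −0.39 (adjusted p = 0.28).

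Whether the responses of the lines differ was tested over all 12 libraries as HCC1187 minus MDA-MB-468. It passed for 3 of the 36 genes, where 3.75% of all genes did: DNAJB11 (0.85 ± 0.21, adjusted p = 0.0377), XBP1 (−0.85 ± 0.19, adjusted p = 0.0247) and SEC61G (−0.73 ± 0.19, adjusted p = 0.0448). Of the 12 fits that left out 1 library, XBP1 passed in 3 (without S4, S8 or S11), DNAJB11 in 2 (without S4 or S12) and SEC61G in 1 (without S4). EIF2AK3 (−0.61 ± 0.17) and SSR1 (−0.64 ± 0.18) followed at an adjusted p of 0.054 each. Without S4, 11 of 36 passed (2 up and 9 down), where 25.6% of all genes did. XBP1 then stood at −1.01 ± 0.12 (adjusted p = 9.76e-07), DNAJB11 at 1.04 ± 0.16 (2.1e-05) and SEC61G at −0.85 ± 0.15 (0.000147), and 4 of 7 translocon genes passed as lower. DNAJC3 showed no passing difference with S4 (−0.19 ± 0.17, interval −0.51 to 0.14) or without it (−0.08 ± 0.15, interval −0.37 to 0.20).

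Between the controls, HCC1187 had less of most of these mRNAs than MDA-MB-468. Lower in HCC1187 were 26 of 36 genes and higher 6, where 40.4% of the 15592 genes tested were lower and 43.6% higher. The median log2 difference was −0.58 over the 36 genes and 0.06 over all. With library totals alone, which moved the median of all genes to 0.29, 21 were lower and 9 higher. The 36 genes took 0.671% to 0.696% of the counts in HCC1187 controls and 0.996% to 1.07% in MDA-MB-468 controls.

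All 7 translocon genes were lower in HCC1187, and SEC61G stood far from the rest. It had 43.5, 45.5 and 43.7 CPM in HCC1187 controls and 1630, 1520 and 1230 CPM in MDA-MB-468 controls, a 32.8-fold difference (−5.03 ± 0.11, adjusted p = 1.34e-20). Per length it was the most abundant of the 36 mRNAs in MDA-MB-468 (792 CPM per kb) and one of modest level in HCC1187 (24 CPM per kb). SEC61G lies on chromosome 7 (GRCh38, 54752250 to 54759974), 259046 bases before EGFR (55019021 to 55211628), a receptor gene known to be amplified in MDA-MB-468. The neighbours beyond EGFR were looked up after this value was seen. EGFR had 52.7, 57.2 and 54.2 CPM in HCC1187 controls, against 6000, 6150 and 6450 CPM (−6.81 ± 0.10), and LANCL2 (55365448 to 55433742) and VOPP1 (55436056 to 55572988) stood at −6.37 ± 0.12 and −5.08 ± 0.10 on the log2 scale. On the other side, VSTM2A had at most 0.108 CPM in any library. Copy number was not measured here. The other translocon genes had log2 differences from −1.13 (SSR1) to −0.48 (SEC63).

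The lectins were lower as well: CALR had 416, 415 and 428 CPM in HCC1187 controls and 1140, 1090 and 1210 CPM in MDA-MB-468 controls (−1.44 ± 0.07, adjusted p = 4.53e-14), and CANX stood at −1.15 ± 0.07. Among chaperones, DNAJC3 (−1.46 ± 0.08), HYOU1 (−1.38 ± 0.07), DNAJB11 (−1.21 ± 0.10), SIL1 (−1.01 ± 0.11), CRELD2 (−0.83 ± 0.11), DNAJB9 (−0.46 ± 0.14) and HSPA5 (−0.30 ± 0.07) were lower. HSP90B1 had 190 CPM per kb in both lines (0.02 ± 0.07, interval −0.12 to 0.16), and SDF2L1 (−0.20 ± 0.13) and MANF (0.14 ± 0.09) did not pass. With library totals alone HSP90B1 (0.25, adjusted p = 0.0013) and MANF (0.38, adjusted p = 0.000716) were higher in HCC1187, and with the GC-content offset MANF was higher (0.27, adjusted p = 0.00561) and SDF2L1 lower (−0.38, adjusted p = 0.00408). DNAJB11 in HCC1187 with sh-SOX9-AS1 (37 to 48.2 CPM) stayed below its MDA-MB-468 control level (61.5 to 67.2 CPM). Of the sensors, XBP1 (−0.91 ± 0.08) and ATF6 (−0.39 ± 0.08) were lower, ERN1 was higher (0.34 ± 0.12, adjusted p = 0.0145, lost with DESeq2 and without S2 or S9), and EIF2AK3 did not pass (−0.02 ± 0.10). EIF2AK3 turned to 0.22 (adjusted p = 0.0381) with library totals alone, and the lower values of HSPA5, DNAJB9, EDEM1, DERL2 and ATF6 did not pass there.

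The genes that were higher in HCC1187 had their largest values in disulfide formation. ERO1B, an ER oxidase, had 41.1, 43 and 36.9 CPM in HCC1187 controls, against 12.4, 7.69 and 7.05 CPM (2.14 ± 0.15, 4.42-fold, adjusted p = 2.56e-11), and ERO1A had 219, 243 and 251 CPM against 129, 130 and 131 CPM (0.88 ± 0.07). The isomerase PDIA4 was higher (0.34 ± 0.07), whereas PDIA6 (−0.95 ± 0.07), PDIA3 (−0.63 ± 0.07) and P4HB (−0.41 ± 0.07) were lower. In degradation, SEL1L and DERL1 were higher by 0.49 each, and SYVN1 (−1.26 ± 0.09), EDEM2 (−1.20 ± 0.13), HERPUD1 (−0.95 ± 0.10), DERL2 (−0.38 ± 0.11) and EDEM1 (−0.38 ± 0.09) were lower. Per length, the most abundant of the 36 in HCC1187 controls were HSP90B1, CALR (155 CPM per kb) and HSPA5 (142), and in MDA-MB-468 controls SEC61G, CALR (423) and CANX (240).

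**Figure D5:**
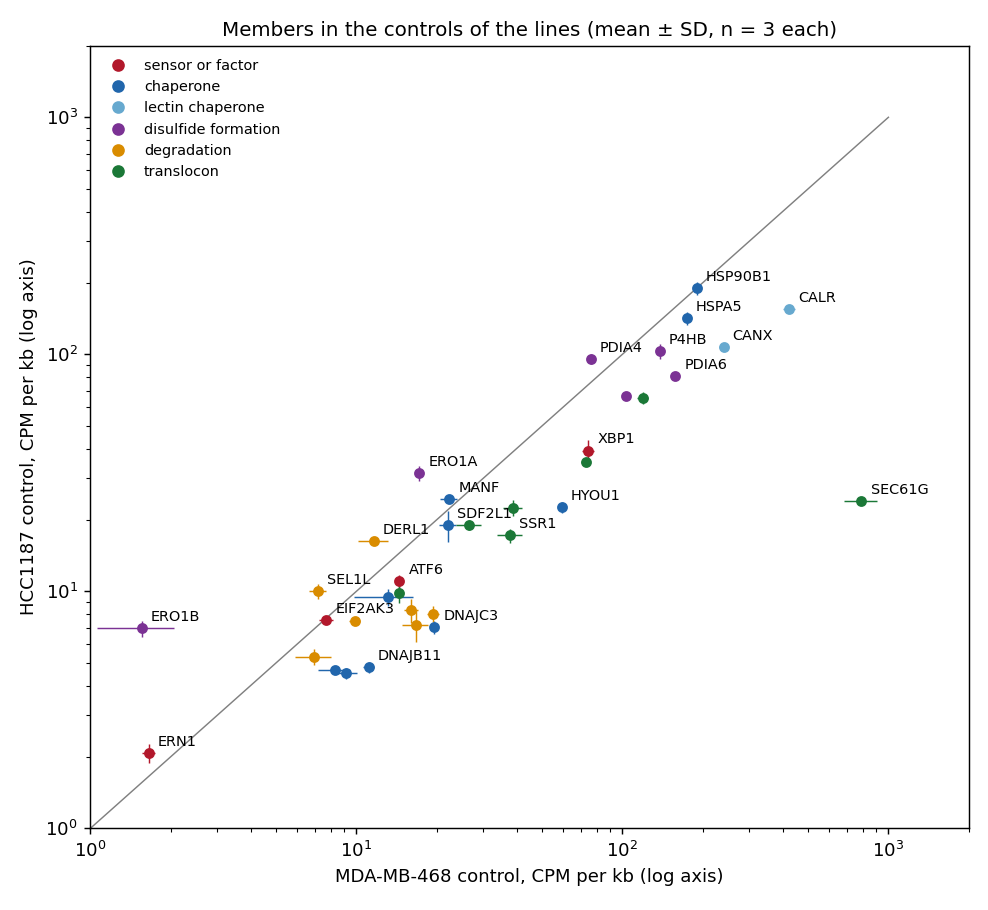
Mean level ± SD (n = 3 per line) of the 36 genes in HCC1187 controls (vertical) against MDA-MB-468 controls (horizontal), in CPM per kb on log axes; the line marks equal levels. Most points lie below the line, SEC61G furthest at 24 against 792 CPM per kb, and ERO1B furthest above it.

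Some of these counts are less certain. Exons of 21 members overlap exons of another gene in GENCODE v29, and for 8 of them (CRELD2, DERL1, DERL2, DNAJB9, DNAJB11, SEC61A1, SIL1 and SYVN1) such a gene held over 20% of the member's own count. Whether strand was used in the counting is not stated, so reads from the opposite strand cannot be told apart. PDIA3 has a close pseudogene, PDIA3P1, that held 562 counts over the 12 libraries, against 34124 for PDIA3.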

How the data were processed

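Gene counts were deposited by the authors as whole-number counts per gene and lane, 36 columns with 60675 genes each. Per the submitters' processing notes reads were handled with HISAT2 2.1.0 and featureCounts 2.0.0 on GRCh38, and with Trimmomatic 0.39, SAMtools, FastQC 0.11.9 and MultiQC 1.11. Their order, parameters, annotation release and strand setting were not given in the sources used here. Per the labels' protocols the kit was stranded, for mRNA, with paired 76 bp reads. Column names give a group, a library number and a lane but tie to no single sample, and no more columns than samples were used for a group: the first of 3 lanes of each library was taken, and 24 columns were not used. Columns labelled sh-SOX9-AS1 are named BLANCO, a word left unexplained by the labels.

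From these counts, each comparison was tested in edgeR 4.0.16 (glmQLFit and glmQLFTest, R 4.3.3), with TMM scaling and genes kept by filterByExpr at a minimum count of 10 and a minimum total of 15; a gene passed (was called) at a Benjamini-Hochberg p under 0.05 over all genes tested. CPM levels use TMM over 12 libraries, and levels per kb use the deposited gene lengths. Alternatives were DESeq2 1.42.0, RLE scaling, library totals alone, no filter, all 12 libraries in 1 fit, each library left out and, added after seeing the data, a GC-content offset. The main edgeR fit of each of the 4 comparisons was first tested on simulated data with planted changes. The alternatives were not tested in that way. The simulated spread between libraries was set lower than that of the MDA-MB-468 and difference fits, so it does not show what those fits can recover. The 36 genes and the other lists were chosen with earlier results of these data known. All 36 genes, SOX9-AS1 and, of each other pathway list, up to 4 genes by smallest p could be named; neighbours of SEC61G were added after its values were seen. SOX9 fell in HCC1187 (adjusted p = 0.0256, edgeR). In MDA-MB-468 SOX9 had 150 CPM in S4, 120 in S5 and 112 in S6, against 230, 203 and 180 CPM in controls. It did not pass there with all 6 libraries and was called lower without S4.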

Additional observations from a re-analysis of the deposited data

Results flagged for a closer look

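A test of the difference between the lines in their response to sh-SOX9-AS1 passed for 3 of the 36 genes, where 3.75% of all genes passed. It was an edgeR quasi-likelihood test over 12 libraries (HCC1187 minus MDA-MB-468, log2 scale, Benjamini-Hochberg adjusted over 16328 genes). DNAJB11, a co-chaperone of HSPA5, had a difference of 0.849 (adjusted p = 0.0377): every sh-SOX9-AS1 library was above every control in HCC1187, and in MDA-MB-468 2 of 3 were below. XBP1, the factor made after IRE1 splicing, had a difference of −0.847 (adjusted p = 0.0247), with all 3 sh-SOX9-AS1 libraries below the controls in HCC1187 and 2 of 3 above them in MDA-MB-468. SEC61G, a subunit of the translocation channel, had a difference of −0.733 (adjusted p = 0.0448), with all 3 libraries below the controls in HCC1187 and 2 of 3 above them in MDA-MB-468. Of the 12 fits that left out 1 library, DNAJB11 passed in 2, XBP1 in 3 and SEC61G in 1, and SEC61G did not pass with library totals alone (adjusted p = 0.0562). In MDA-MB-468 the exception was in each case S4, the library that resembled the controls of its line. Why the lines differ was not tested.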

How the results depend on the processing

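In HCC1187 17 genes passed, where 22.8% of all genes did. The count was 13 to 18 under DESeq2, RLE scaling, library totals alone, no filter and the GC offset. It was 9 with all 12 libraries in 1 fit, and 9 to 17 leaving out each library. In MDA-MB-468 the count of 0 became 1 without a filter (DNAJB9) and 1 with all 12 libraries (DNAJC3), and 0 to 8 leaving out each library, 8 being without S4. Of all genes, 0.00733% passed there in the main fit and 40.7% without S4. For the controls 84.1% of all genes passed in the main fit, near the share of the members. The 32 calls of members ranged from 30 to 34, and 31 to 32 leaving out each library. EIF2AK3 there reversed to 0.217 with library totals alone, by which the median of all genes was shifted. The 3 differences between the responses became 6 with DESeq2, 5 with RLE scaling, 5 without a filter and 7 with the GC offset, 2 with library totals alone, which SEC61G did not pass (adjusted p = 0.0562), and 0 to 11 leaving out each library. The causes of these moves were not tested. Of all genes, the difference between the responses passed for 3.75% in the main fit and for 25.6% without S4. No paired analysis was possible because the count columns carry no replicate numbers. The sum of the 3 lanes was not run, because no more columns than samples were used for a group. Intervals and p-values rest on 3 libraries per group and on the counts of 1 lane.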
